A study of Mus musculus with 20 samples.

Results

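The miR-344 family is a group of small RNAs known from rodents, and its rows in these data were taken by name: every row starting mmu-miR-344, whatever its letter, copy number or arm, joined names included. The rule gave 18 of the 1886 mature miRNA rows. One of the 18 carried a joined name, for the identical 5p arms of miR-344e and miR-344h. Reads were present for 15 rows, and the rows for miR-344b-5p, miR-344d-2-5p and miR-344i held no read in any of the 20 libraries.

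The libraries came from neurons of the ventral mesencephalon, taken from C57Bl6/J mouse embryos at embryonic day 12.5 with the meninges removed and cultured in serum-free Neurobasal-A medium with B27. GDNF, a growth factor that keeps dopamine neurons alive, was given at 10 ng/ml, and small RNA was sequenced after 1 or 5 days in vitro (DIV1 and DIV5). The 4 groups of 5 libraries were DIV5 with GDNF, DIV5 without GDNF (DIV5 control), DIV1 with GDNF and DIV1 without GDNF (DIV1 control). All 4 shared the strain, dissection and medium, and no group carried a genetic change. The cultures were mixed: the labels name midbrain neurons and describe no sorting, and nothing in them says whether the replicates were separate litters or cultures, so p-values measure the spread between these libraries, which may be technical.

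A microRNA is cut from a hairpin precursor, whose arms give a 5p and a 3p product. The loaded product pairs with messenger RNAs mainly through its seed, bases 2 to 8 from the 5′ end, and lowers their translation or stability. The Mir344 hairpins lie in the mouse interval that corresponds to the human Prader-Willi and Angelman region, an imprinted stretch of the genome whose genes are active in brain, and the family is known mainly from nervous tissue.

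The mature sequences below are those that hold most of the family's reads, written 5′ to 3′ with the seed in capitals, from RefSeq (build GRCm38.p6). All 19 names in the rows matched a RefSeq entry. The first 2 share a seed, miR-344d-3p and miR-344e-3p share another, and the rest each differ.
miR-344-3p: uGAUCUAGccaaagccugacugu
miR-344c-3p: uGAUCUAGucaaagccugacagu
miR-344d-3p: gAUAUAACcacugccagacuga
miR-344e-3p: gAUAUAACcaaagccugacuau
miR-344f-3p: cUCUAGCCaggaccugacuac
miR-344b-3p: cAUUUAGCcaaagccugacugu
miR-344f-5p: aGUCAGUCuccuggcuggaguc
miR-344d-3-5p: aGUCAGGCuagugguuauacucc

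Counted from 1 at the 5′ end, miR-344-3p and miR-344c-3p differ by C9U and U21A (the miR-344-3p base first), both outside the seed. miR-344b-3p shares a run of 18 bases with miR-344-3p, uagccaaagccugacugu, but the run starts at base 6 of miR-344-3p and at base 5 of miR-344b-3p, so the seeds differ. miR-344d-3p and miR-344e-3p have the same seed and differ at 5 of 22 positions, given as C11A, U12A, A16U, G21A and A22U with the miR-344d-3p base first. Across the 18 rows there were 11 seeds. The seed GUCAGGC was common to 6 of the 5p rows, which held 226 reads between them, while miR-344f-5p has GUCAGUC.

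The hairpins that make these arms number 13, all on the minus strand of chromosome 7 at chr7:61683124-62085310, a span of 402 kb with gaps of 2079 to 63821 bases between neighbours. Their positions were the same in GENCODE vM21. In the direction of transcription the order is Mir344i, Mir344f, Mir344g, Mir344-2, Mir344, Mir344c, Mir344b, Mir344h-2, Mir344h-1, Mir344e, Mir344d-3, Mir344d-2 and Mir344d-1. The run from Mir344 to Mir344d-3 lies in introns of the lincRNA gene A230057D06Rik, Mir344-2 lies in an intron and Mir344g in an exon of the noncoding gene A330076H08Rik, and 4 hairpins overlap no other annotated gene. No protein-coding gene is annotated inside the span, and the nearest is Ndn, 261 kb away. miR-344-3p can come from 2 of the hairpins, Mir344 at chr7:61877770-61877864 and Mir344-2 at chr7:61940027-61940106, and miR-344d-3p from 3, so neither row can be split by copy. How reads that match several hairpins were counted is not given, so whether these rows are sums over copies is not known. The following hairpins show the arms in capitals for miR-344f, the one precursor for which both arms passed the low-count filter (chr7:62046181-62046248), and for miR-344c (chr7:61837311-61837402), which keeps almost all its reads on 1 arm.
Mir344f: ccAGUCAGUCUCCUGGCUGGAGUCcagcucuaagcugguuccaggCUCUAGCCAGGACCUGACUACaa
Mir344c: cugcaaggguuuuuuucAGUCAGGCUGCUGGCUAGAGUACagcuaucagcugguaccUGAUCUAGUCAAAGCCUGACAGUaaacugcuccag

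**Figure D1:**
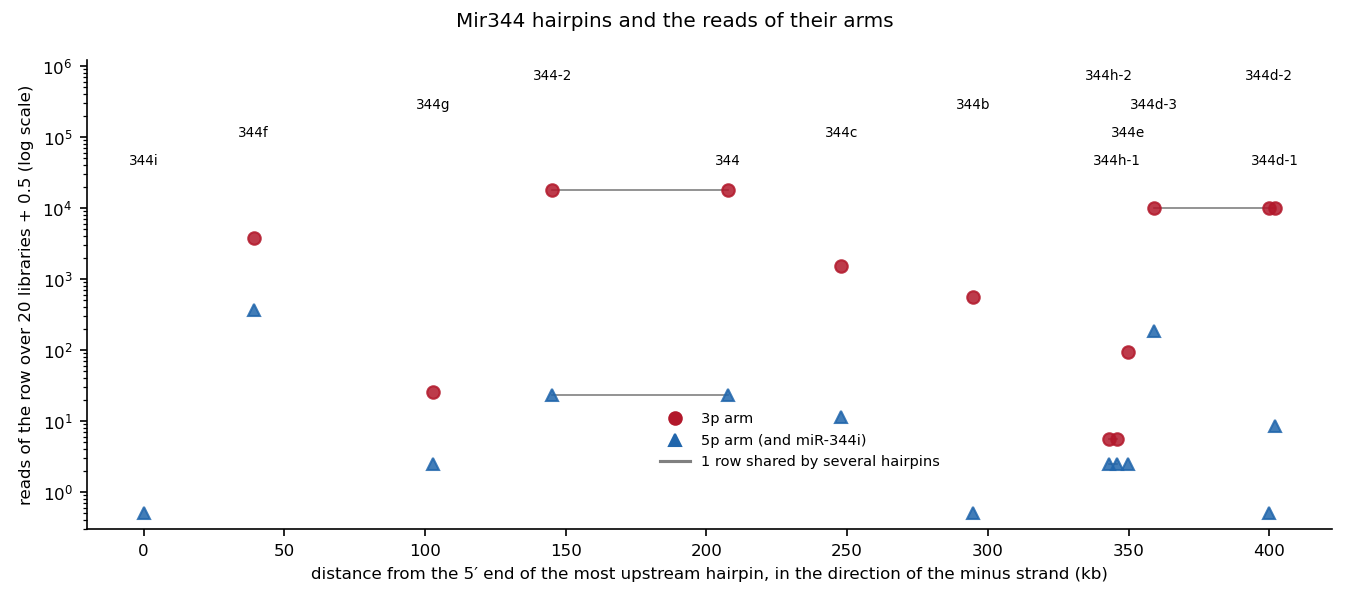
Reads of each mature row summed over the 20 libraries (log scale, 0.5 added) against the position of its hairpin, in kb along the minus strand from the 5′ end of Mir344i; circles are 3p arms, triangles are 5p arms and miR-344i, and grey lines join hairpins that share a row. Reads were highest for the rows shared by Mir344 and Mir344-2 (17728) and by the Mir344d copies (9879). Where both rows of a hairpin had reads, the 3p row, which may be shared by copies, lay above the 5p row.

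The family held 34199 reads in all, and 3 rows made up most of them. miR-344-3p had 17728 reads (51.8% of the family's reads), miR-344d-3p 9879 (28.9%) and miR-344f-3p 3790 (11.1%). miR-344c-3p followed with 1530 reads and miR-344b-3p with 552. Below these were miR-344f-5p with 368, miR-344d-3-5p with 182, miR-344e-3p with 94, miR-344g-3p with 25, miR-344-5p with 23 and miR-344c-5p with 11. The last 4 rows with reads had 8 for miR-344d-1-5p, 5 for miR-344h-3p and 2 each for miR-344g-5p and the joined miR-344e-5p and miR-344h-5p row. These are reads and not molecules, since arms can differ in how well they are ligated and read. How reads matching several hairpins were counted is not given, so the shares and ranks of miR-344-3p and miR-344d-3p are uncertain. By mean level, the order miR-344-3p, miR-344d-3p, miR-344f-3p and miR-344c-3p was the same in all 4 groups. miR-344-3p averaged 492 CPM (counts per 1000000 miRNA-assigned reads after TMM scaling) and miR-344d-3p 241 CPM at DIV5 with GDNF. At DIV1 with GDNF the means were 216 and 200 CPM, and the ranges of the 2 arms overlapped.

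Total miRNA counts ran from 420118 to 4324505 a library, the DIV1 libraries being shallower (420118 to 1761023) than the DIV5 libraries (1061619 to 4324505). A count of 0 allows up to 3 reads, which is 0.694 CPM in the deepest library and 7.14 CPM in the shallowest, so the 3 rows with no reads are below those levels and not shown to be absent. These floors cover counting error only. Reads assigned to no miRNA, as a share of all counted reads, were 17.7% to 19.5% in DIV5 replicates 1 and 2 and 9.51% to 13.3% in DIV5 replicates 3 to 5, against 16.5% to 22.6% at DIV1. DIV5 control replicates 1 and 5 stood apart from the other libraries in several miRNAs, so most comparisons and group values of the family that use DIV5 control are also given without them.

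Neuron and progenitor miRNAs differed strongly between the days, as measured on marker lists. The summed CPM of 4 neuronal arms (miR-124-3p, miR-128-3p, miR-129-5p and miR-137-3p) was 12173 to 16315 at DIV5 with GDNF, 12643 to 19937 at DIV5 control, 4023 to 7269 at DIV1 with GDNF and 3883 to 7214 at DIV1 control. The sum of 4 progenitor arms led by miR-92b-3p was 18395 to 23002, 13601 to 21897, 50937 to 70814 and 48793 to 69472 CPM in the same order of groups. Mesenchymal arms led by miR-143-3p summed to 199 to 1980 and 446 to 1339 CPM at DIV5 with and without GDNF, against 2711 to 3381 and 2743 to 4029 CPM at DIV1, with 2 of the 4 called lower at DIV5 in both comparisons. Of the endothelial pair, miR-126a-3p averaged 25.5 and 33.6 CPM at DIV5 with and without GDNF, against 59.7 and 93.7 CPM at DIV1, and miR-126a-5p had no reads. Of the 3 oligodendrocyte arms, miR-219a-2-3p averaged 202 and 283 CPM at DIV5 with and without GDNF, against 548 and 573 CPM at DIV1, miR-338-3p stayed below 1 CPM on average and miR-219a-5p had no reads. Both miR-126a-3p and miR-219a-2-3p were called lower at DIV5 with and without GDNF. How far such shifts in cell make-up take part in the day differences below was not tested, and in bulk RNA fewer cells of a type and less RNA per cell cannot be told apart.

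As a whole the family took a larger share of the miRNA reads at DIV5. It made up 0.0913% ± 0.0112 of the counts at DIV5 with GDNF and 0.102% ± 0.0220 at DIV5 control, against 0.0514% ± 0.00366 at DIV1 with GDNF and 0.0487% ± 0.00663 at DIV1 control (SD, n = 5 each), and 0.0925% ± 0.0242 over DIV5 control replicates 2, 3 and 4. Summed CPM was 879 ± 105 at DIV5 with GDNF, 913 ± 144 at DIV5 control, 548 ± 24.0 at DIV1 with GDNF and 523 ± 62.7 at DIV1 control, and 849 ± 142 over DIV5 control replicates 2, 3 and 4. The lowest DIV5 library, with 719 CPM, lay above the highest DIV1 library, with 622 CPM. These sums are a description, in which miR-344-3p has the largest share.

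The low-count filter, which asked for about 6.03 CPM in as many libraries as a group holds, let through 6 of the 18 rows: miR-344-3p, miR-344b-3p, miR-344c-3p, miR-344d-3p, miR-344f-3p and miR-344f-5p. miR-344b-3p was above that level in 5 libraries of each DIV5 group, in 1 of DIV1 with GDNF and in 0 of DIV1 control. It passed through the day on which it is high, so it is left out of the counts of day changes in the next paragraph and described by its own values. The 6 rows were fitted together with the other tested miRNAs, 542 in all, with edgeR's quasi-likelihood test, and p-values were adjusted by Benjamini-Hochberg over the 542.

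At DIV5 the arms with the GAUCUAG seed were higher than at DIV1, with and without GDNF. miR-344-3p rose 2.27-fold with GDNF and 2.04-fold without, and miR-344c-3p rose 1.69-fold with GDNF and 2.43-fold without. The miR-344f arms did not pass the test in either comparison, and miR-344d-3p passed only without GDNF. With GDNF, 2 of the 5 rows other than miR-344b-3p were called at an adjusted p below 0.05, both higher at DIV5, where 52.4% of all 542 tested miRNAs were called and 25.1% were called higher. Without GDNF, 3 of 5 were called, all higher, against 60.7% called and 31.4% called higher among all tested. Without DIV5 control replicates 1 and 5, the second count was 2 of 5, against 53.8% of 530 called and 27.4% called higher. With so few rows, no difference from the share of all miRNAs called is read from these counts. The median log2 change of the 5 rows was 0.26 with GDNF and 0.55 without, beside 0.00 and 0.10 for all tested miRNAs. Without DIV5 control replicates 1 and 5, the value without GDNF was 0.31, beside 0.03 for all tested.

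miR-344-3p, the most abundant arm, had 536, 471, 525, 472 and 457 CPM in replicates 1 to 5 at DIV5 with GDNF, against 164, 239, 251, 227 and 200 CPM at DIV1 with GDNF. In DIV5 control libraries it had 356, 385, 607, 458 and 480 CPM, against 241, 224, 183, 241 and 232 CPM in DIV1 control libraries. Every DIV5 library lay above every DIV1 library, and DIV5 control spread most. The fold was 2.27 with GDNF (log2 1.18, SE 0.146, adjusted p = 1.05e-06, edgeR) and 2.04 without (log2 1.03, SE 0.146, adjusted p = 5.26e-06, edgeR), and 2.19 without GDNF once DIV5 control replicates 1 and 5 were left out.

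miR-344c-3p, which carries the same seed at a far lower level, had 39.6, 27.4, 40.4, 45.9 and 37.7 CPM at DIV5 with GDNF, against 29.2, 18.9, 16.2, 25.9 and 26.0 CPM at DIV1 with GDNF. The groups overlapped, since DIV5 replicate 2 lay below DIV1 replicate 1. In DIV5 control libraries it had 37.7, 32.6, 48.3, 42.1 and 50.7 CPM, against 14.2, 14.7, 19.6, 27.5 and 12.4 CPM in DIV1 control libraries, with no overlap. The log2 change was 0.75 with GDNF (SE 0.224, adjusted p = 0.00764, edgeR) and 1.28 without (SE 0.228, adjusted p = 7.55e-05, edgeR), and leaving out DIV5 control replicates 1 and 5 gave 1.27 without GDNF. With GDNF the call was lost when only DIV5 replicates 1 and 2 were kept (log2 0.57, adjusted p = 0.155, edgeR).

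miR-344b-3p, whose seed AUUUAGC no other row has, was low throughout. It had 13.04, 18.1, 22.6, 13.5 and 17.7 CPM at DIV5 with GDNF, against 6.95, 2.70, 1.87, 3.98 and 2.60 CPM at DIV1 with GDNF. In DIV5 control libraries it had 10.4, 17.8, 20.4, 16.7 and 12.9 CPM, against 2.02, 0.916, 0, 5.23 and 1.55 CPM in DIV1 control libraries. The days did not overlap under either treatment. This arm passed the low-count filter through DIV5, where it is high, so its p-values below are not read as support for the rise. The DIV1 values rest on few reads: the DIV1 libraries with GDNF held 16 reads in all and the DIV1 control libraries 9, against 270 and 257 reads at DIV5 with and without GDNF. The fitted fold was 4.91 with GDNF (log2 2.30, SE 0.388, adjusted p = 5.14e-05, edgeR) and 7.91 without (log2 2.98, SE 0.432, adjusted p = 6.99e-06, edgeR). Without DIV5 control replicates 1 and 5 the second fold was 9.43 (log2 3.24, SE 0.437, adjusted p = 3.70e-06, edgeR), and without DIV1 control replicate 4, which held 4 of the 9 reads, it was 12.1 (log2 3.60, adjusted p = 3.60e-06, edgeR).

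miR-344d-3p, the second most abundant arm, changed less and varied with the replicate. It had 362, 214, 233, 216 and 178 CPM at DIV5 with GDNF, against 263, 176, 194, 188 and 182 CPM at DIV1 with GDNF. In DIV5 control libraries it had 323, 192, 242, 236 and 339 CPM, against 262, 174, 151, 175 and 146 CPM in DIV1 control libraries. Replicate 1 was the highest library of its group in 3 of the 4 groups and the second highest at DIV5 control, after replicate 5. The log2 change between the days was 0.26 with GDNF (SE 0.203, adjusted p = 0.285, edgeR) and 0.55 without (SE 0.203, adjusted p = 0.0249, edgeR). Without DIV5 control replicates 1 and 5, the second value was 0.31 (adjusted p = 0.220, edgeR), so the call was lost. It was also lost without DIV5 control replicate 5 alone (log2 0.47, adjusted p = 0.0518, edgeR), without DIV1 control replicate 3 (0.50, adjusted p = 0.0577, edgeR) and without DIV1 control replicate 5 (0.50, adjusted p = 0.0539, edgeR), and with only DIV5 replicates 1 and 2 (0.58, adjusted p = 0.0898, edgeR). A further fit took the replicate number as a block within each day. It takes differences between replicates out of the error of a day change, so its p-values do not measure that spread. Without those 2 libraries, blocks 1 and 5 at DIV5 held only libraries with GDNF. The change without GDNF was then 0.44 (adjusted p = 0.00210, edgeR) and the change with GDNF 0.28 (adjusted p = 0.00980, edgeR). Neither value is read as restoring the call.

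Neither arm of miR-344f passed the test between the days. miR-344f-3p had 77.2, 75.3, 83.03, 66.4 and 73.9 CPM at DIV5 with GDNF, against 87.5, 79.1, 85.3, 84.6 and 72.8 CPM at DIV1 with GDNF. In DIV5 control libraries it had 185, 82.9, 67.8, 60.3 and 176 CPM, against 92.3, 77.9, 79.7, 75.9 and 91.4 CPM in DIV1 control libraries. DIV5 control replicates 1 and 5 were the 2 highest of the 20 libraries, and the other 18 lay between 60.3 and 92.3 CPM. The log2 change between the days was -0.13 with GDNF (SE 0.246, adjusted p = 0.669, edgeR) and 0.46 without (SE 0.245, adjusted p = 0.113, edgeR), and -0.24 without GDNF once those 2 libraries were left out (SE 0.144, adjusted p = 0.160, edgeR). The change without GDNF passed the threshold when DIV5 control replicate 3 (0.61, adjusted p = 0.0322, edgeR) or replicate 4 (0.63, adjusted p = 0.0218, edgeR) was left out, each of which gives the 2 high libraries more weight, with only DIV5 replicates 1 and 2 (0.78, adjusted p = 0.0119, edgeR), where replicate 1 is 1 of 2 control libraries, and without the low-count filter (0.67, adjusted p = 0.0277, edgeR). miR-344f-5p ranged over 7.24 to 9.34 CPM at DIV5 with GDNF, 2.96 to 18.3 CPM at DIV5 control, 3.59 to 18.9 CPM at DIV1 with GDNF and 6.06 to 9.78 CPM at DIV1 control. Its log2 change between the days was -0.28 with GDNF and 0.30 without (adjusted p = 0.590 and 0.553, edgeR).

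**Figure D2:**
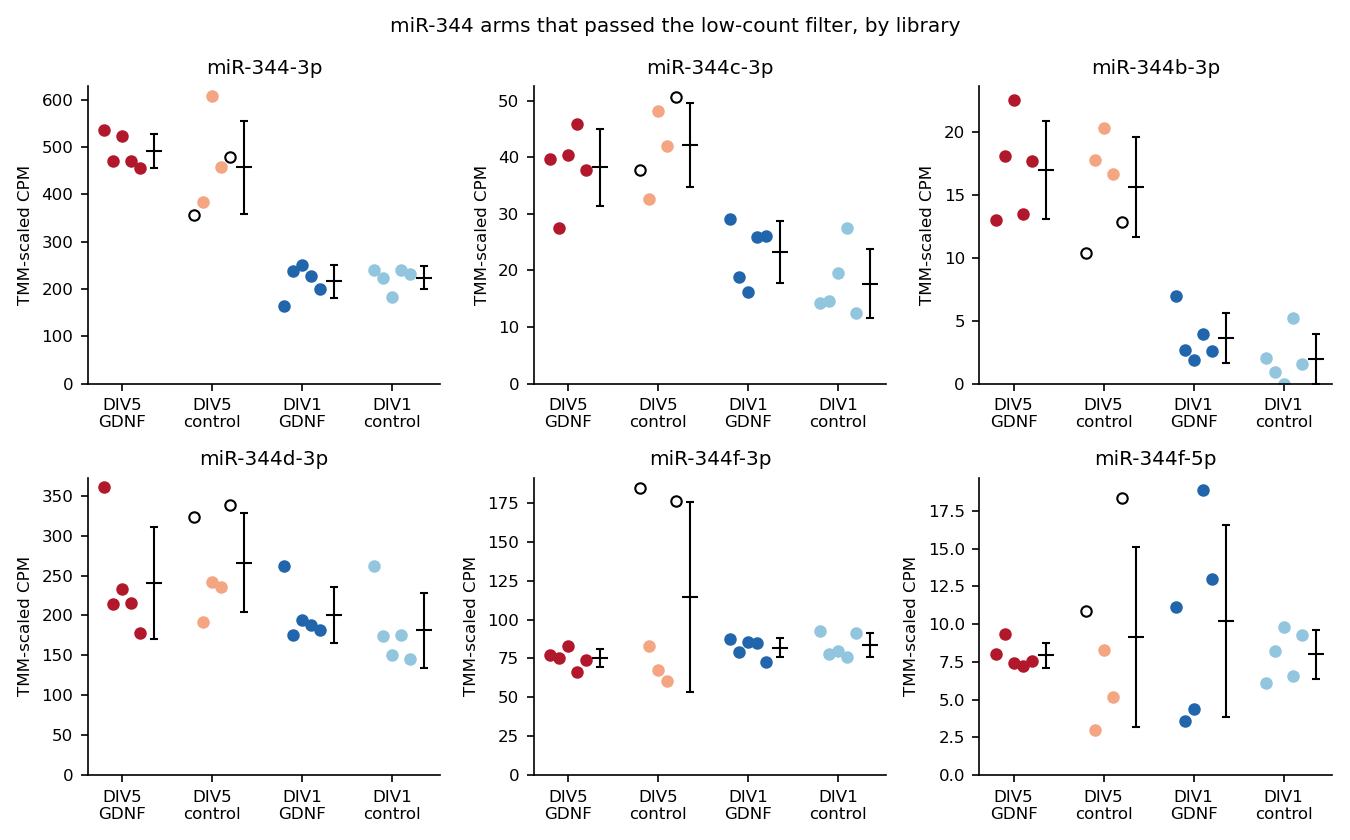
TMM-scaled CPM of the 6 tested arms in each of the 20 libraries, by group, with replicates 1 to 5 from left to right and the mean and SD of the group as a black cross with whiskers; open circles are DIV5 control replicates 1 and 5. The DIV5 and DIV1 points separate for miR-344-3p and miR-344b-3p, and the open circles stand at 185 and 176 CPM for miR-344f-3p, where the other 18 libraries lie between 60.3 and 92.3 CPM.

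**Figure D3:**
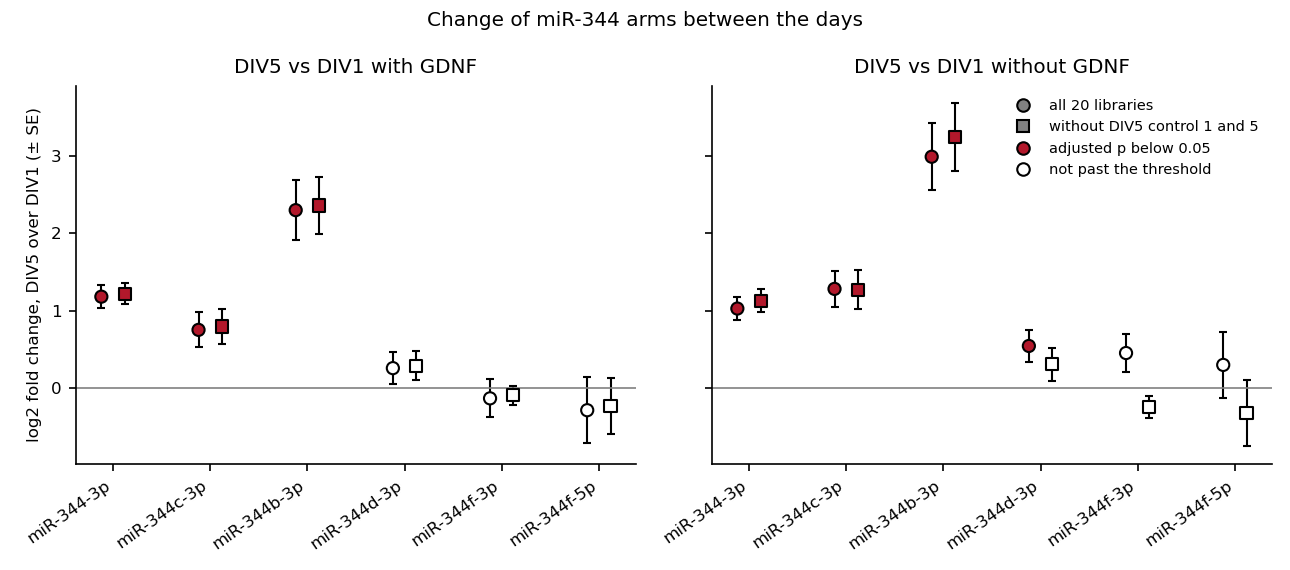
Fitted log2 fold change of each tested arm, DIV5 over DIV1 with its SE, with GDNF (left) and without (right); circles use all 20 libraries, squares leave out DIV5 control replicates 1 and 5, and filled symbols have an adjusted p below 0.05. Without GDNF the miR-344d-3p symbol loses its fill and the miR-344f-3p value changes sign, 0.46 against -0.24, when the 2 libraries are left out. miR-344b-3p passed the low-count filter through DIV5, where it is high, so its fill is not read as support for the rise.

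The 2 libraries that stood apart were examined arm by arm. Over DIV5 control replicates 1 and 5, miR-344f-3p averaged 2.57 times and miR-344f-5p 2.67 times its mean over DIV5 control replicates 2, 3 and 4. The ratio was 1.48 for miR-344d-3p, 1.08 for miR-344c-3p, 0.865 for miR-344-3p and 0.636 for miR-344b-3p. In both libraries at least 2-fold higher than that mean were 43 of the 542 tested miRNAs (7.93%), and 1 of the 6 miR-344 rows, miR-344f-3p, was among them. miR-344f-5p fell short because replicate 1 had 10.8 CPM, against 18.3 CPM in replicate 5 and a mean of 5.47 CPM in the other 3.

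GDNF changed no miR-344 arm past the threshold on either day. At DIV5, 0 of 6 rows were called, beside 1 of all 542 tested miRNAs (0.185%), and 1 row, miR-344f-3p, had an unadjusted p below 0.05, as did 88 of the 542 (16.2%). At DIV1, 0 of 6 were called, with none at an unadjusted p below 0.05, beside 0 of all tested called (0%) and 7 (1.29%) at an unadjusted p below 0.05. DESeq2 also called 0 of the 6 on each day, while it called 4.8% of all tested miRNAs at DIV5. With GDNF against control at DIV5, the log2 change was 0.10 for miR-344-3p (SE 0.143), 0.13 for miR-344b-3p (SE 0.281), -0.15 for miR-344c-3p (SE 0.205), -0.15 for miR-344d-3p (SE 0.2004), -0.30 for miR-344f-5p (SE 0.371) and -0.61 for miR-344f-3p (SE 0.240, adjusted p = 0.192, edgeR). Without DIV5 control replicates 1 and 5, 0 of the 6 rows were called, beside 0 of all 530 tested miRNAs. The miR-344f-3p value was then 0.09 (SE 0.141) and the miR-344f-5p value 0.33, both with an adjusted p of 0.999 in edgeR. The other values were 0.00 for miR-344-3p, -0.12 for miR-344b-3p, -0.13 for miR-344c-3p and 0.08 for miR-344d-3p. When DIV5 control replicate 4 alone was left out, so that the 2 high libraries were 2 of 4, miR-344f-3p was called (log2 -0.77, adjusted p = 0.0380, edgeR). The share of all tested miRNAs called in that fit is not given here, so nothing about the family is read from this call. The DIV5 comparison shares its control libraries with the day comparison without GDNF, so the same high libraries enter both.

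At DIV1 the log2 change with GDNF was -0.05 for miR-344-3p (SE 0.147), -0.02 for miR-344f-3p (SE 0.250), 0.14 for miR-344d-3p (SE 0.206), 0.29 for miR-344f-5p (SE 0.479), 0.38 for miR-344c-3p (SE 0.245) and 0.81 for miR-344b-3p (SE 0.568). The SE was largest for miR-344b-3p and miR-344f-5p, the 2 arms of the 6 with the fewest reads, and the adjusted p was 1.00 for all 6 in edgeR. The difference between the GDNF effects of the 2 days was tested as an interaction term and was called for 0 of the 6 rows and 0% of all tested. Its values ran from -0.69 for miR-344b-3p to 0.15 for miR-344-3p, with adjusted p between 0.717 and 0.919 in edgeR. Without DIV5 control replicates 1 and 5 it was again called for 0 of the 6 rows, beside 0% of 530 tested.

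**Figure D4:**
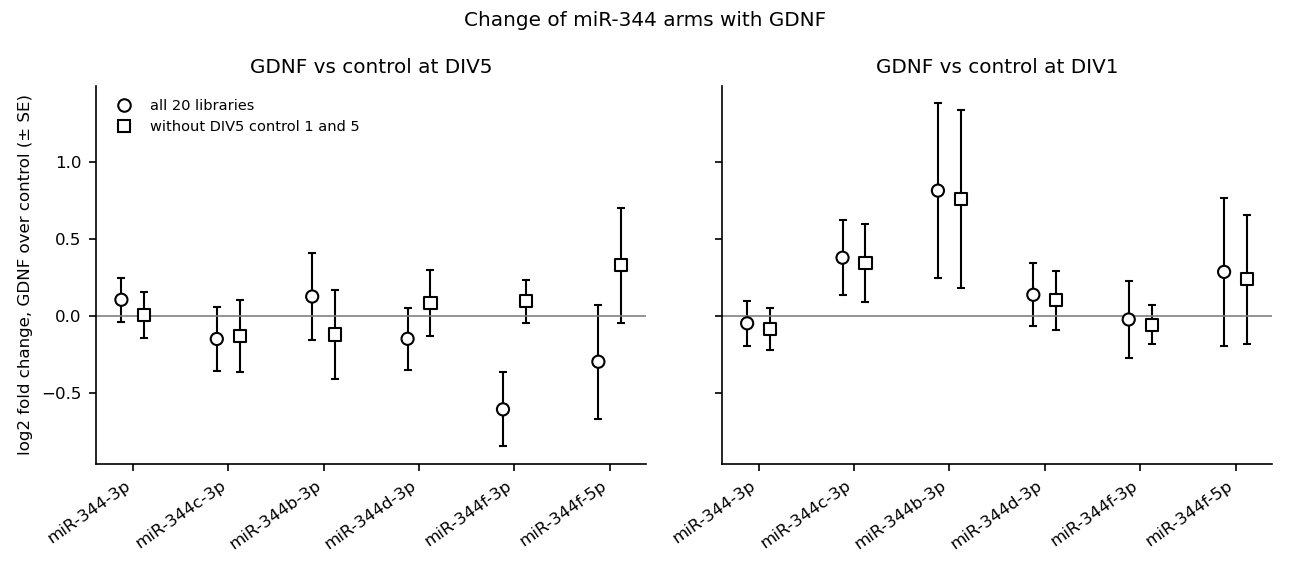
Fitted log2 fold change of each tested arm, GDNF over control with its SE, at DIV5 (left) and DIV1 (right); circles use all 20 libraries and squares leave out DIV5 control replicates 1 and 5, and no value has an adjusted p below 0.05. At DIV5 the miR-344f-3p value is -0.61 with all libraries and 0.09 without the 2, while that of miR-344-3p is 0.10 and 0.00.

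The shares of the arms within the family are given as a description. miR-344-3p made up 56.2% ± 2.80 of the family's reads at DIV5 with GDNF and 50.4% ± 9.05 at DIV5 control, against 39.6% ± 6.61 at DIV1 with GDNF and 43.0% ± 3.42 at DIV1 control (SD, n = 5 each). miR-344d-3p made up 27.0% ± 4.48, 29.0% ± 4.05, 36.5% ± 5.35 and 34.3% ± 4.70 in the same order of groups, and miR-344f-3p 8.61% ± 0.874, 12.3% ± 5.66, 14.9% ± 0.466 and 16.1% ± 1.88. In DIV5 control replicates 2, 3 and 4 the 3 shares were 56.6%, 26.4% and 8.54%. By seed, pooled over a group's libraries, the GAUCUAG arms held 61.0% of the family's reads at DIV5 with GDNF and 56.0% at DIV5 control, against 44.9% at DIV1 with GDNF and 45.3% at DIV1 control, and 63.3% in DIV5 control replicates 2, 3 and 4.

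**Figure D5:**
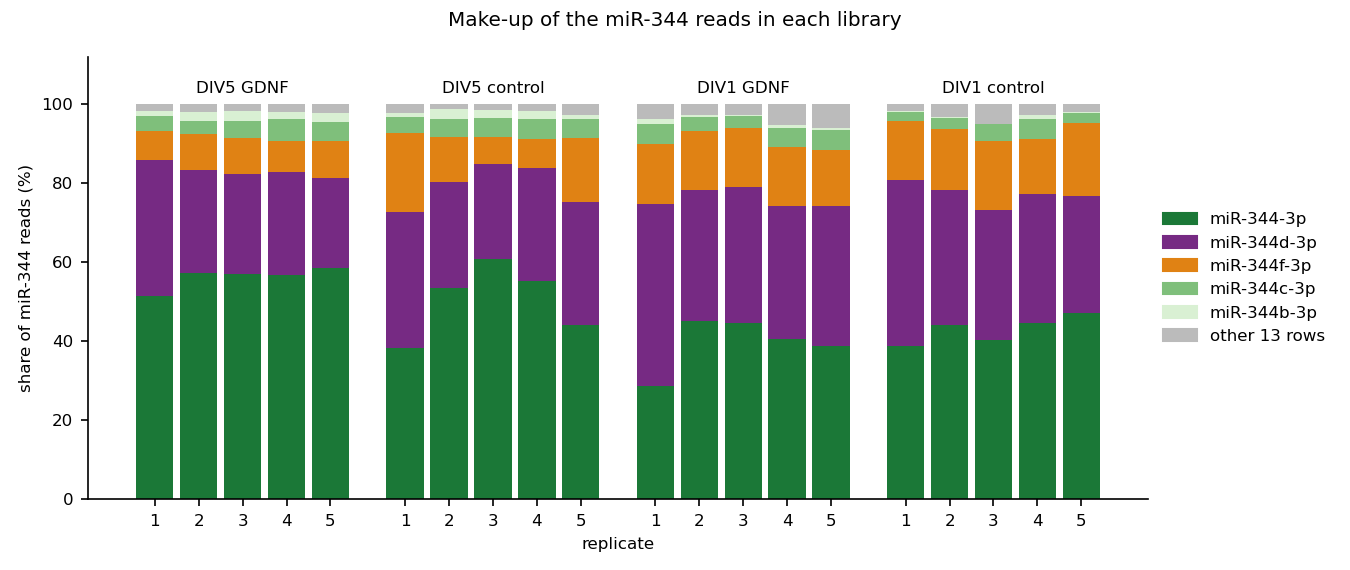
Share of each library's miR-344 reads that fell on the 5 most abundant 3p arms and on the other 13 rows, in percent, by group and replicate. miR-344-3p takes over 50% of every DIV5 library with GDNF and under 50% of every DIV1 library, and DIV5 control replicates 1 and 5 have the lowest miR-344-3p shares of that group.

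Ratios between arms within a library need no scaling, and they were compared for each pair of the 4 most abundant 3p arms, a measure added after seeing the data, with two-sided exact permutation tests over libraries. None of the 24 tests passed after Benjamini-Hochberg adjustment over the 24. The lowest unadjusted p, 0.00794, is the smallest that 5 against 5 libraries allow, and it was reached by 2 ratios. With 24 tests, ratios at that p pass only if more than these 2 reach it, so the lack of a call is not read as no change. With GDNF, the log2 ratio of miR-344-3p to miR-344f-3p was 2.63 to 2.83 at DIV5, against 0.90 to 1.59 at DIV1, a difference of 1.33 (adjusted p = 0.0952, exact permutation test). The log2 ratio of miR-344-3p to miR-344d-3p was 0.57 to 1.36 at DIV5 with GDNF, against -0.68 to 0.44 at DIV1 with GDNF, a difference of 0.96 (adjusted p = 0.0952, exact permutation test). Neither pair of groups overlapped. Without GDNF the same ratios overlapped between the days, with differences of 0.72 and 0.46, given for miR-344f-3p first. When DIV5 control replicates 1 and 5 were left out, the differences were 1.35 for miR-344-3p over miR-344f-3p and 0.77 for miR-344-3p over miR-344d-3p, neither with overlap (adjusted p = 0.0714 for each, exact permutation test). Ratios without miR-344-3p also separated there. The difference was -1.48 for miR-344f-3p over miR-344c-3p (adjusted p = 0.0714) and -0.90 for miR-344d-3p over miR-344c-3p (adjusted p = 0.122, exact permutation test for both). The remaining ratios overlapped.

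The 3p arm predominated under every letter with reads, though rows shared by copies do not show this for each hairpin. For miR-344h this rests on 5 reads of 3p, against 2 in the 5p row joined with miR-344e. Rows of 3p arms held 33603 reads, 98.3% of the family's, and rows of 5p arms 596. The 5p share of the reads under a letter was 8.85% for miR-344f (368 of 5p and 3790 of 3p), 1.89% for miR-344d (190 and 9879), 0.714% for miR-344c (11 and 1530) and 0.130% for miR-344 (23 and 17728). For miR-344b it was 0 of 552 reads, which allows a share of up to 0.543%. miR-344f thus gave about 10.3 reads of its 3p arm for each of its 5p arm, against 771 for miR-344. The miR-344d share sets 5p rows of single copies against a 3p row shared by copies, so it depends on how shared reads were counted.

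Within miR-344d, the 5p reads separate the copies that the 3p row cannot. miR-344d-3-5p held 182 of the 190, miR-344d-1-5p held 8 and miR-344d-2-5p held 0. How far this reflects the 3p arm of each copy is not shown by these counts.

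By group, the 5p share of miR-344f averaged 9.55% ± 1.02 at DIV5 with GDNF, 7.44% ± 2.99 at DIV5 control, 10.8% ± 6.16 at DIV1 with GDNF and 8.77% ± 1.81 at DIV1 control (SD, n = 5 each), and the groups overlapped. That of miR-344d averaged 2.10% ± 0.837, 1.38% ± 0.266, 3.25% ± 0.787 and 1.97% ± 1.47 in the same order. Over DIV5 control replicates 2, 3 and 4 the shares were 7.41% ± 3.75 for miR-344f and 1.42% ± 0.350 for miR-344d. The log2 ratio of 3p to 5p reads (0.5 added to each) was tested for miR-344, miR-344c, miR-344d and miR-344f in the 4 two-group comparisons, 16 two-sided exact permutation tests. None passed after adjustment over the 16, where a single ratio at the smallest possible p could not pass by itself. Without DIV5 control replicates 1 and 5 none passed either (lowest adjusted p = 0.0952, exact permutation test). With all libraries the lowest adjusted p was 0.0635. That value belonged to miR-344 and miR-344c between the days, with and without GDNF, where each library held 0 to 5 reads of the 5p arm: there the ratio moves with depth and with the number added, and with 1 read added in place of 0.5 the adjusted p was 0.0317 for all 4 in the exact permutation test.

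The miRNAs outside the family whose levels followed miR-344-3p most closely were found by Pearson's r of log2 CPM over the 20 libraries, given as a description, since libraries of a group share their day. They were miR-598-3p (r = 0.950), miR-326-3p (0.944), miR-22-3p (0.944), miR-381-3p (0.942) and miR-383-5p (0.941). Of these, miR-598-3p averaged 738 CPM at DIV5 with GDNF and 597 at DIV5 control (651 over replicates 2, 3 and 4), against 245 at DIV1 with GDNF and 231 at DIV1 control. Within the family, r with miR-344-3p was 0.851 for miR-344b-3p, 0.754 for miR-344c-3p, 0.504 for miR-344d-3p, -0.0074 for miR-344f-3p and -0.11 for miR-344f-5p, and 39 miRNAs outside the family followed miR-344-3p more closely than miR-344b-3p did. Over the 18 libraries without DIV5 control replicates 1 and 5, r with miR-344-3p was 0.848 for miR-344b-3p, 0.740 for miR-344c-3p, 0.479 for miR-344d-3p, -0.54 for miR-344f-3p and -0.25 for miR-344f-5p, so the miR-344f-3p value turned on those 2 libraries. The 5 named miRNAs had r between 0.944 and 0.950 over the 18, but they were not the closest 5 there. Outside the family, 7 miRNAs came closer than miR-326-3p, 6 closer than miR-22-3p and 5 closer than miR-383-5p. Closer than miR-344b-3p were 59.

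Other miRNAs changed between the days in the same direction as miR-344-3p. Of 19 tested arms of neuronal miRNAs such as miR-124 and miR-128, which are enriched in neurons, 11 rose and 3 fell with GDNF, where 52.4% of all tested miRNAs were called and 25.1% were called higher. Without GDNF 13 rose and 4 fell, where 60.7% of all tested were called and 31.4% called higher, and 11 rose and 2 fell once DIV5 control replicates 1 and 5 were left out (53.8% and 27.4% of all tested). The list had median log2 changes of 1.09 with GDNF and 1.20 without, beside 0.00 and 0.10 for all tested. Leaving out those 2 libraries gave 0.99 without GDNF, beside 0.03. miR-128-3p changed by log2 1.33 with GDNF and 1.61 without, and miR-124-3p by 1.31 and 1.36. Of 24 tested arms from another imprinted cluster, that of miR-127 and miR-434 on chromosome 12, 18 rose with GDNF (25.1% of all tested rose) and 21 without (31.4%), and 0 fell. Without DIV5 control replicates 1 and 5 the second count was 20 (27.4%), again with 0 that fell. The median log2 changes of this list were 0.97 with GDNF and 1.06 without (1.01 without DIV5 control replicates 1 and 5). miR-434-3p changed by 1.38 and 1.11, and miR-127-3p by 0.55 and 0.40. GDNF against control called 0 arms of either list on either day.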

How the data were processed

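Small RNA was sequenced in 20 libraries, 4 groups of 5. Per the submitters' processing notes, the authors trimmed reads with cutadapt 1.8.1, aligned them to mm10 with STAR 2.4.1d and used HTSeq (version not given in the sources used here), and they deposited raw counts per mature miRNA. The miRNA annotation and the handling of reads that match several hairpins are not given in the sources used here, so arms shared by copies, and near-identical arms, are uncertain. Tally lines for unassigned reads were left out of totals and tests; unassigned reads were 9.51% to 22.6% of counted reads.

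The counts were scaled with TMM, filtered with filterByExpr and fitted in edgeR 4.0.16 (limma 3.58.1, R 4.3.3) by the robust quasi-likelihood test, with 1 coefficient per group over all 20 libraries and Benjamini-Hochberg adjustment over 542 miRNAs; an adjusted p below 0.05 was a call. SE is the log2 change divided by the square root of F. Arm ratios (0.5 reads added) were compared with exact permutation tests. The test scripts were tested on simulated data. Groups came from the sample labels.

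The members and lists were chosen with earlier results of these data known. All rows starting mmu-miR-344 are accounted for; outside the family, the 5 miRNAs with the highest r with miR-344-3p and the 2 most abundant arms of each list are named. Replicate numbers were shared by the groups: same-numbered libraries deviated together at DIV5 (r = 0.207 to 0.532, 5 of 5 pairs over 0.1), less so at DIV1 (0.0223 to 0.508, 4 of 5), and across days in 3 of 20 pairs. On each day, 6 of 10 libraries matched best with their own number. Some unlike numbers at DIV5 matched more closely: control replicate 1 had r = 0.326 with GDNF replicate 2, against 0.207 with GDNF replicate 1. Whether the numbers pair the libraries is thus not shown. No 2 replicates were alike within sampling noise. Alternatives were RLE scaling, DESeq2 1.42.0, other low-count filters, a replicate block within day, subsets of DIV5 replicates, a fit of only the 10 libraries compared, other numbers of reads added, and each library left out in turn.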

Additional observations from a re-analysis of the deposited data

Results flagged for a closer look

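In 68 groups of 5 libraries tested for a library far from the rest, 6 held one, where chance alone gives about 1 in 20 independent groups. The groups are not independent, since levels and ratios share arms and libraries, so no excess is read from this count. miR-344d-3p stood at 262.524 CPM in DIV1 GDNF replicate 1, where the other 4 libraries had 176 to 194 CPM, and at 262.124 CPM in DIV1 control replicate 1, where the others had 146 to 175 CPM. The log2 ratio of miR-344-3p to miR-344d-3p was lowest in replicate 1 of both groups with GDNF: 0.567865 at DIV5, where the others had 1.13 to 1.36, and -0.677311 at DIV1, where the others had 0.14 to 0.44. The log2 ratio of miR-344-3p to miR-344f-3p was 0.900059 in DIV1 GDNF replicate 1, where the others had 1.42 to 1.59. The log2 ratio of 3p to 5p reads of miR-344 was 11.7785 in DIV5 GDNF replicate 5, which held 0 reads of the 5p arm, where the others had 8.74 to 9.08.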

How the results depend on the processing

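The calls of miR-344-3p between the days held under all 20 alternatives with and without GDNF. So did those of miR-344b-3p, but this arm passed the low-count filter through DIV5, where it is high. Its DIV1 values rest on 16 reads with GDNF and 9 without. The call of miR-344c-3p held under all 20 without GDNF and 19 with GDNF, and that of miR-344d-3p without GDNF under 15 of 20. When single libraries were left out, the number of the 6 tested arms called, miR-344b-3p included, ran from 3 to 5 without GDNF and was 3 with GDNF. With all libraries, 60.7% and 52.4% of all tested miRNAs were called in these comparisons. GDNF at DIV5 gave 0 to 1 of the 6, beside 0.185% of all tested with all libraries. The 1 call came without DIV5 control replicate 4, and the share of all tested called in that fit is not given here. No difference from these shares is read from the counts. Without DIV5 control replicates 1 and 5, log2 values turned round for GDNF at DIV5 (miR-344b-3p -0.1215, miR-344d-3p 0.0824, miR-344f-3p 0.0945, miR-344f-5p 0.3293), for the days without GDNF (miR-344f-3p -0.2397, miR-344f-5p -0.3171) and for the interaction (miR-344f-3p 0.1516, miR-344f-5p 0.0918). With the replicate block within day and without these libraries, log2 values that turned round were -0.0718 (miR-344b-3p), 0.0928 (miR-344f-3p) and 0.2812 (miR-344f-5p) for GDNF at DIV5, -0.2328 and -0.2635 for the days without GDNF, and 0.1311 and 0.07 for the interaction, in the order miR-344f-3p, miR-344f-5p, while miR-344d-3p kept its sign for GDNF at DIV5 (-0.05). The replicate block with all libraries changed no call (miR-344d-3p without GDNF log2 0.56, adjusted p = 0.00387, edgeR). For changes between the days, its p-values leave out the spread between replicates. With DIV5 replicates 3 to 5 only, GDNF at DIV5 gave miR-344-3p -0.0819; with replicates 1 and 2 only, it gave miR-344d-3p 0.0471 and miR-344f-5p 0.0643. Without the low-count filter the days with GDNF gave miR-344f-3p 0.1395, where the median of all miRNAs moved by 0.265. With 1 read added, 2 arm ratios passed without GDNF and 2 with GDNF, in place of 0. With single libraries left out, values that changed sign ran, for GDNF at DIV1, from -0.124 to 0.0073 (miR-344-3p), -0.0055 to 0.3124 (miR-344d-3p), -0.0841 to 0.0194 (miR-344f-3p) and -0.2039 to 0.5331 (miR-344f-5p); and for miR-344f-5p from -0.4663 to 0.1204 for GDNF at DIV5, from -0.0925 to 0.4812 for the days without GDNF and from -0.5213 to 0.2356 with GDNF. The cause was not tested. Depth limits miR-344b-3p and miR-344f-5p at DIV1 and all 5p arms but that of miR-344f.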
